A study of Danio rerio with 85 samples.

Results

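The transcriptome of the wildtype zebrafish heart was compared between 3 dpf and 2 dpf (days post fertilization). The comparison used 10 single hearts of 3 dpf and 13 single hearts of 2 dpf, which are 23 of the 85 samples of a series on the Polycomb protein Rnf2. They were chosen by age and genotype alone, and no gene's value entered the choice. Each library was made from the heart of 1 embryo by CEL-seq, a method that counts polyadenylated mRNA with unique molecular identifiers (UMIs). All embryos came from incrosses of *rnf2* heterozygous fish of a mixed TU/TLF background, were wildtype at *rnf2* (myl7:GFP_rnf2+/+) and carried the transgene Tg(myl7::GFP), in which the heart muscle promoter of *myl7* drives GFP. Hearts were dissected by hand and the rest of each embryo was used for genotyping.

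The zebrafish heart starts as a beating tube of muscle lined by endocardium. The tube loops and divides into an atrium and a ventricle, with valves forming in the atrioventricular canal between them, where a swollen matrix rich in hyaluronan, the cardiac jelly, separates muscle from endocardium. Over these days the epicardium spreads over the muscle from outside, and at the arterial end the bulbus arteriosus forms, an elastic chamber of smooth muscle rich in elastin.

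For each gene the level is given in rescaled UMIs, that is, UMIs after every heart was brought to the same total of 39415 over the 10196 gene rows listed at both ages. A level of 1 stood for between 0.593 UMIs in the shallowest heart and 2.07 UMIs in the deepest. Depth did not differ detectably with age: 3 dpf hearts held 27309 to 82308 UMIs (median 39780) and 2 dpf hearts 23523 to 81685 (median 39204), with p = 0.819 in a two-sided permutation test. The random barcode of 4 bases limits how many UMIs of a gene can be told apart in a heart, so that the level of the most abundant genes is capped, and 37 of the 10196 rows reached 200 UMIs in some heart. The labels give no collection day or sequencing batch for these hearts, so that age and any such difference cannot be told apart, and the p-values rest on the spread between single hearts. Along the first principal component, which held 7.27% of the variance, 3 dpf hearts lay between 5.51 and 37.1 and 2 dpf hearts between −49.8 and 9.61, so that the ages overlapped slightly. At 2 dpf the shallowest hearts, 2 and 7 (23381 and 25504 UMIs over shared rows), lay lowest at −49.8 and −34.9. The deepest, heart 4 (80771), lay highest at 9.61. The order was not the same at 3 dpf, where the shallowest, heart 17 (27030), lay highest at 37.1 and the deepest, heart 22 (81689), lay at 6.84. An effect of depth on this component was not tested. The second component held 6.97%. The samples held heart tissue at both ages. The 6 cardiomyocyte markers summed to 464 to 763 at 3 dpf and 340 to 848 at 2 dpf, and the 5 endocardial markers to 33.7 to 85.4 and 31.4 to 65.1. Red blood cells, epidermis and yolk or liver were also represented, and *mpeg1.1* and *marco*, markers of macrophages, had no row in the 3 dpf table. The skeletal muscle markers summed to 76.6 to 176 at 3 dpf and 71.2 to 179 at 2 dpf, but mostly through *acta1b*, which embryonic heart muscle also expresses. At 2 dpf *acta1b* averaged 124, against 2.15 for *mylpfa*, 0.568 for *myhz1.1* and 1.14 for *tnnt3b*.

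Of the 10196 genes, 38 (0.373%) were higher and 25 (0.245%) were lower at 3 dpf than at 2 dpf in limma's moderated test on log2(level + 1), at a Benjamini-Hochberg adjusted p under 0.01. A gene is called changed below only where it passed this threshold. Fold changes are given as the log2 difference of 3 dpf minus 2 dpf ± SE, on the log2(level + 1) scale, which understates the change of genes with few UMIs. At an unadjusted p under 0.05 the shares were 4.75% higher and 4.69% lower. Every list count at that threshold given below is to be read against these shares. The median difference over all genes was 0.0056. The 38 increases ranged between 0.68 and 2.59 and the 25 decreases between −0.83 and −2.88. The ages did not overlap at all for 3 of the genes that rose (0.0294% of all genes), *krt15*, *gstm.3* and *LTBP4*, and for 1 that fell (0.00981%), *hbbe3*.

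**Figure D1:**
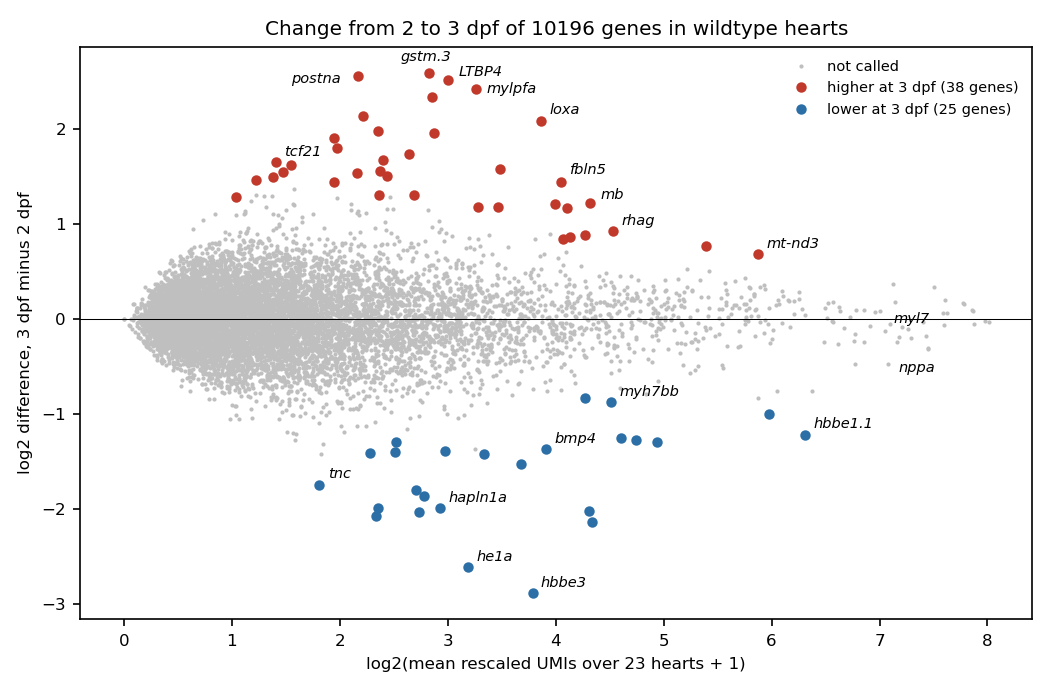
Log2 difference of 3 dpf minus 2 dpf wildtype hearts (y axis) against the log2 of the mean level in rescaled UMIs plus 1 over the 23 hearts (x axis), with 1 point per gene for 10196 genes. The 38 genes that were higher at 3 dpf and the 25 that were lower are coloured, and none of them reaches the mean level of *myl7* or *nppa*.

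Few genes of heart muscle itself passed the test between these ages. *myl7*, which encodes the regulatory myosin light chain of cardiomyocytes, measured 94.2 to 178 (median 117) at 3 dpf, against 67.8 to 181 (median 135) at 2 dpf. The atrial myosin heavy chain gene *myh6* measured 27.7 to 45.7 (median 32.5) at 3 dpf, against 22.4 to 58.4 (median 45.5) at 2 dpf. Both pairs of ranges overlapped, and the log2 differences were −0.13 ± 0.11, adjusted p = 0.784 and −0.32 ± 0.15, adjusted p = 0.478. The ventricular myosin gene *vmhc* (−0.16 ± 0.11, adjusted p = 0.694), the troponin gene *tnnt2a* (−0.23 ± 0.12, adjusted p = 0.567) and the calcium pump gene *atp2a2a* (−0.12 ± 0.13, adjusted p = 0.857) did not pass either. None of 25 thin filament and Z-disc genes, 20 genes of calcium handling and ion channels and 23 cardiac transcription factors changed, whereas 7, 0 and 4 of them were lower and 0, 1 and 1 higher at an unadjusted p under 0.05 by limma (4.69% and 4.75% of all genes). In all, 24 of the 25 thin filament genes and 20 of the 23 genes of the transcription factor list had negative differences, with medians of −0.24 and −0.28. The latter list includes *smyd1b* (−0.70), which was also listed among the sarcomere assembly chaperones. *nkx2.5*, *hand2* and *tbx5a*, transcription factors that specify heart muscle, had differences of −0.50 ± 0.27, −0.30 ± 0.17 and −0.22 ± 0.33, and *tbx20* had one of 0.15 ± 0.24. The levels of the transcription factor list, *smyd1b* included, summed to 102 to 144 (median 125) at 3 dpf and 139 to 165 (median 152) at 2 dpf, so that the ages overlapped only between 139 and 144. A lower median was not particular to this list. The 6 cardiomyocyte markers had median sums of 557 at 3 dpf and 674 at 2 dpf. Those of the thick filament list were 793 and 914, and those of the thin filament list 820 and 1010.5. For the list of energy transfer and oxygen store the 3 dpf median was the higher, with 667 and 648.

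Of 15 thick filament genes 1 fell. *myh7bb*, a slow myosin heavy chain gene, measured 6.99 to 22.7 (median 14.6) at 3 dpf, against 10.2 to 43.8 (median 25.6) at 2 dpf, and 3 of the 10 hearts of 3 dpf were below every 2 dpf heart (−0.88 ± 0.19, adjusted p = 0.00302). Its call was lost without 3 dpf heart 19 (0.0165), 3 dpf heart 21 (0.015) or 2 dpf heart 2 (0.0103), the values being adjusted p. The call was also lost in DESeq2 (adjusted p = 0.0196) and with hearts thinned to the shallowest. In limma it was lost too without both of the shallowest 2 dpf hearts (adjusted p = 0.02) or without 3 dpf hearts 15 and 17 (adjusted p = 0.0164). The natriuretic peptide genes, which are expressed in working and stretched heart muscle, were lower at 3 dpf without passing. *nppa* measured 57.7 to 155 (median 106) at 3 dpf, against 69.8 to 196 (median 160.2) at 2 dpf, with the ranges overlapping (−0.47 ± 0.11, adjusted p = 0.0116). It passed without 3 dpf heart 16, 21 or 24 or without 2 dpf heart 4 or 9, with adjusted p between 6.35e-05 and 0.00999. In limma it also passed with the number of genes detected as a covariate (−0.45, adjusted p = 0.000604). With UMIs corrected for the barcode limit, a correction chosen after seeing the data, it passed too (−0.68, adjusted p = 0.000368). The count of *nppa* reached 202 UMIs, so that its level is among those affected by this limit. *nppb* measured 5.02 to 13.5 (median 6.79) at 3 dpf, against 5.80 to 34.3 (median 13.5) at 2 dpf (−0.67 ± 0.23, adjusted p = 0.166).

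Of 15 genes of the energy transfer and oxygen store of muscle 3 rose. *mb* encodes myoglobin, which binds oxygen in muscle, and measured 6.28 to 63.2 (median 28.1) at 3 dpf, against 3.37 to 19.4 (median 9.95) at 2 dpf. In 7 of the 10 hearts of 3 dpf it exceeded every 2 dpf heart (1.22 ± 0.24, adjusted p = 0.000425). *ckmt2b*, a mitochondrial creatine kinase gene of striated muscle, measured 0 to 22.1 (median 7.83) at 3 dpf, against 0 to 3.66 (median 0.488) at 2 dpf and was likewise above the 2 dpf range in 7 hearts (1.98 ± 0.35, adjusted p = 6.41e-05). *ckmb*, a cytosolic muscle creatine kinase gene, measured 4.21 to 41.9 (median 15.8) at 3 dpf, against 1.23 to 13.5 (median 4.16) at 2 dpf (1.58 ± 0.25, adjusted p = 5.73e-06). It belongs to skeletal muscle too, and its highest level was in 3 dpf heart 15, where other skeletal muscle genes were highest. The next highest *ckmb* level, 19.9, was in heart 24, where the called skeletal muscle genes summed to only 31.8, and *ckmb* kept its call without hearts 15 and 17. The highest *mb* and *ckmt2b* levels were in hearts 22 and 21. In heart 15 they were 18.9 for *mb* and 6.76 for *ckmt2b*. From which tissue these transcripts came was not tested. The other 12 of the 15 genes of energy transfer did not pass, among them *ckma* at −0.24 ± 0.11 and *fabp3*, which carries fatty acids, at −0.24 ± 0.12.

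Few other metabolic genes passed. Of 90 nuclear genes of oxidative phosphorylation, assembly factors included, none changed, with 10 higher and 1 lower at an unadjusted p under 0.05, 63 had positive differences and the median was 0.14. Of the 13 genes encoded in mitochondria, 12 had positive differences, and *mt-nd3*, a subunit of complex I, rose. *mt-nd3* measured 42 to 90.4 (median 79.0) at 3 dpf, against 34.5 to 72.7 (median 43.8) at 2 dpf (0.68 ± 0.13, adjusted p = 0.000331). This list depended on the barcode limit: 8 of its 13 genes passed once the UMIs were corrected for barcode saturation, a correction chosen after seeing the data. *fabp11a*, a fatty acid binding protein gene, rose among 27 genes of fatty acid use. It measured 11.9 to 31.4 (median 18.8) at 3 dpf, against 5.19 to 18.2 (median 12.5) at 2 dpf (0.84 ± 0.20, adjusted p = 0.00947), and the call was lost when any of 16 of the 23 hearts was left out. None of 21 genes of the tricarboxylic acid cycle and 21 of glycolysis passed, with 0 and 2 higher and 0 and 2 lower at an unadjusted p under 0.05.

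Of the 20 genes of the smooth muscle and outflow tract list 3 rose and none fell, and these 3, *loxa*, *fbln5* and *loxl1*, encode proteins of elastic fibres or enzymes that crosslink them. *LTBP4*, which rose too and stood in no list, encodes a latent TGFβ binding protein that takes part in elastic fibre assembly in mammals. It measured 3.16 to 41.4 (median 9.43) at 3 dpf, against 0 to 3.09 (median 1.23) at 2 dpf, and all 10 hearts of 3 dpf were above all 13 of 2 dpf (2.52 ± 0.32, adjusted p = 4.08e-09). *loxa*, a lysyl oxidase gene whose product crosslinks elastin and collagen, measured 6.76 to 61.5 (median 18.3) at 3 dpf, against 1.01 to 8.50 (median 4.39) at 2 dpf. In 8 of the 10 hearts of 3 dpf it was above the 2 dpf range (2.09 ± 0.28, adjusted p = 3.11e-08). *fbln5*, which encodes the elastic fibre protein fibulin 5, measured 5.83 to 52.7 (median 16.1) at 3 dpf, against 0 to 24 (median 5.86) at 2 dpf. Its ranges overlapped more, with 4 hearts above the highest 2 dpf heart (1.44 ± 0.30, adjusted p = 0.00136), and it did not pass in DESeq2. *loxl1*, another lysyl oxidase gene, measured 0.994 to 13.8 (median 2.42) at 3 dpf, against 0 to 2.08 (median 0) at 2 dpf. This difference (1.49 ± 0.32, adjusted p = 0.0026) rested in part on 3 dpf heart 18, without which the adjusted p was 0.0158.

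These genes varied several-fold among 3 dpf hearts. The levels of *loxa* were 61.5 in heart 18, 51.8 in heart 23, 40.5 in heart 20 and 32 in heart 19, against 6.76 in heart 15 and 8.00 in heart 16. *LTBP4* was also highest in heart 18 (41.4) and heart 23 (33), and *fbln5* was highest in heart 18 (52.7), heart 23 (49.7) and heart 20 (48.7). The hearts with high *loxa* thus also had high *fbln5*, as a description over 10 hearts. *efemp2a*, a fibulin gene of the same family that was looked at after its values were seen, measured 2.7 to 10.5 (median 4.69) at 3 dpf, against 0 to 3.37 (median 1.69) at 2 dpf and was above the 2 dpf range in 9 hearts (1.53 ± 0.30, adjusted p = 0.000413). *elnb*, the elastin gene of the bulbus arteriosus, was listed at 3 dpf only, where 7 of the 10 hearts had at least 1 UMI and the highest level was 7.53.

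Other elastic fibre genes of the list did not pass, with log2 differences of −0.12 for *fbln2*, −0.28 for *emilin2a*, 0.06 for *loxl2a*, 0.10 for *ltbp1*, 0.22 for *mfap2*, 0.42 for *emilin1a* and 0.75 for *mfap5*. The contractile smooth muscle genes did not pass: *acta2* had a difference of −0.06 ± 0.23 and *tagln* one of 0.03 ± 0.34, and either sign changed when single hearts were left out. *mylka* (1.21 ± 0.31, adjusted p = 0.0214) and *myh11a* (1.18 ± 0.33, adjusted p = 0.0494), a kinase and a myosin of smooth muscle, were higher without passing. The median of the list was 0.09. Without 3 dpf hearts 15 and 17, in which skeletal muscle or liver genes were highest, 5 of the 20 passed, a choice made after seeing the data. These hearts were also among the lowest of 3 dpf for *loxa* (6.76 and 8.75) and *fbln5* (8.11 and 5.83). Leaving them out thus raises the 3 dpf levels of these genes, and the count is a description only. Because whole hearts were measured, more cells of a type and more RNA per cell cannot be told apart for these or the following genes.

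**Figure D2:**
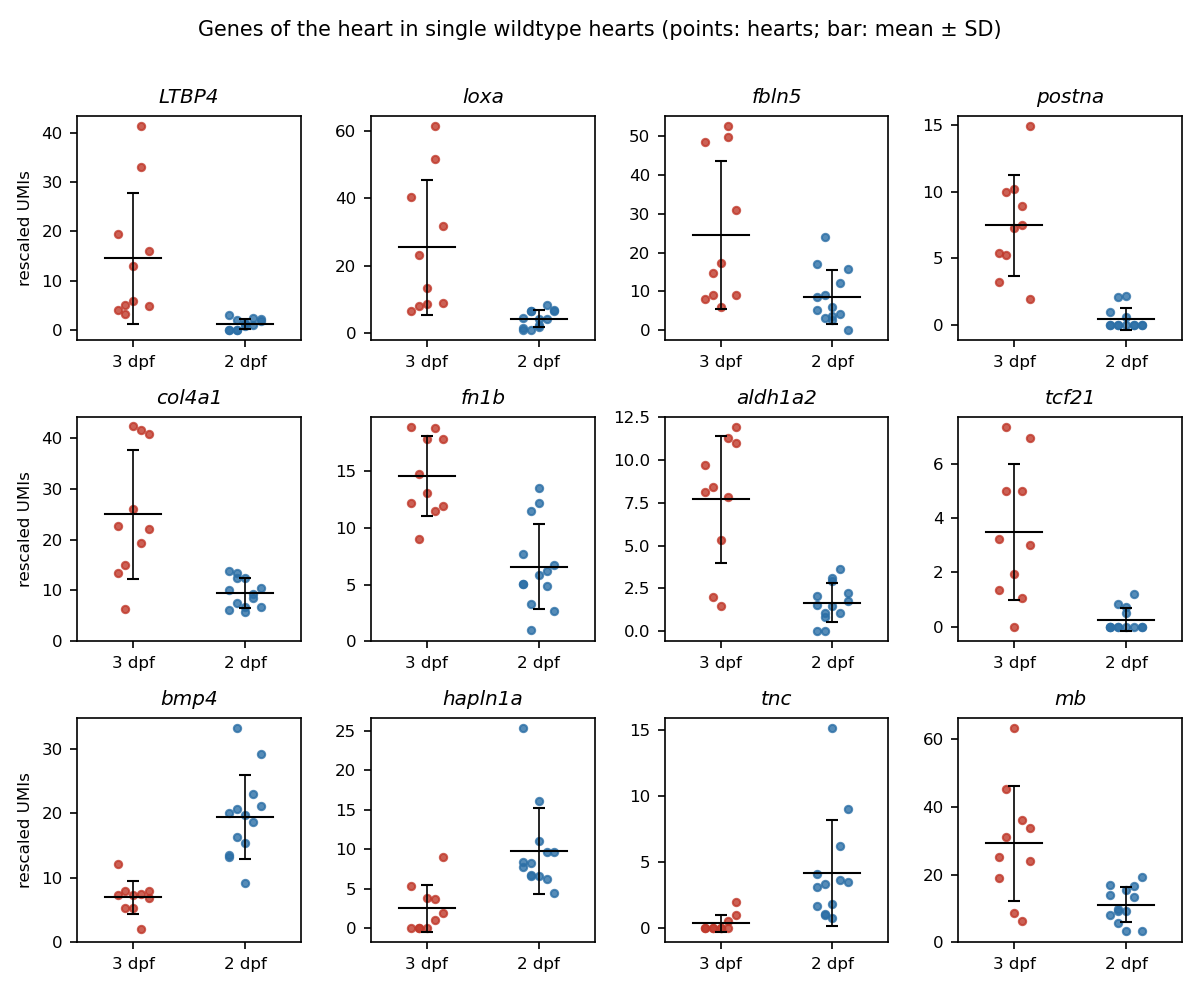
Levels in rescaled UMIs (y axis) of 12 genes of the heart in single wildtype hearts, with 10 hearts of 3 dpf on the left and 13 of 2 dpf on the right of each panel. Points are hearts and bars are the mean ± SD. *LTBP4* shows no overlap between ages, whereas for *fbln5* 4 hearts of 3 dpf are above the highest 2 dpf heart.

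Of the 37 genes of the collagen and matrix list 4 rose and 1 fell. *postna*, which encodes periostin, a matrix protein of valves and connective tissue, was at 0 in most 2 dpf hearts. It measured 2.00 to 14.9 (median 7.38) at 3 dpf, against 0 to 2.2 (median 0) at 2 dpf, with 9 of the 10 hearts of 3 dpf above the 2 dpf range (2.55 ± 0.31, adjusted p = 1.65e-09). *col4a1*, a collagen of the basement membrane, measured 6.32 to 42.3 (median 22.3) at 3 dpf, against 5.86 to 13.9 (median 9.35) at 2 dpf, and 8 hearts were above the 2 dpf range (1.17 ± 0.22, adjusted p = 0.000138). *col1a2*, a chain of type I collagen, measured 9.48 to 40.2 (median 21.3) at 3 dpf, against 3.37 to 22.1 (median 12.1) at 2 dpf (0.86 ± 0.21, adjusted p = 0.00953). The ranges of *col1a2* overlapped widely and its call was lost when any of 15 of the 23 hearts was left out, with an adjusted p of up to 0.0427. *fn1b*, a fibronectin gene expressed at the forming valve, measured 9.00 to 18.9 (median 13.9) at 3 dpf, against 1.04 to 13.6 (median 5.86) at 2 dpf, with 5 hearts above the 2 dpf range (1.18 ± 0.24, adjusted p = 0.000707).

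The gene of the list that fell was *tnc*, which encodes tenascin C, a matrix protein of tissue under remodelling. It measured 0 to 2.00 (median 0) at 3 dpf, against 0.732 to 15.1 (median 3.32) at 2 dpf, and 8 of the 10 hearts of 3 dpf were below every 2 dpf heart (−1.74 ± 0.33, adjusted p = 0.000291). In the list 27 genes had positive differences and the median was 0.30. The summed level of the list was 234 to 513 (median 348) at 3 dpf and 182 to 339 (median 264) at 2 dpf. *abi3bpb*, a gene for an extracellular matrix protein that stood in no list, measured 2.7 to 32.1 (median 8.45) at 3 dpf, against 0 to 4.49 (median 1.76) at 2 dpf and was above the 2 dpf range in 8 hearts (1.96 ± 0.29, adjusted p = 7.6e-07). *cav1*, which builds the caveolae of endothelium and smooth muscle and was looked at after its values were seen, measured 12.6 to 33.8 (median 22.4) at 3 dpf, against 3.90 to 13.2 (median 8.80) at 2 dpf, with 9 hearts above the 2 dpf range (1.21 ± 0.20, adjusted p = 1.06e-05).

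Of the 28 genes of the atrioventricular canal and valve list 2 fell and 1 rose. *hapln1a* encodes the link protein that binds hyaluronan to proteoglycans in the cardiac jelly. It measured 0 to 8.99 (median 1.52) at 3 dpf, against 4.49 to 25.4 (median 8.31) at 2 dpf, and 8 of the 10 hearts of 3 dpf were below every 2 dpf heart (−1.99 ± 0.30, adjusted p = 1.16e-06). *bmp4*, a signal of the atrioventricular canal and of both poles of the heart tube, measured 2.09 to 12.2 (median 7.30) at 3 dpf, against 9.27 to 33.2 (median 19.8) at 2 dpf. Here 9 of the 10 hearts of 3 dpf were below the 2 dpf range (−1.37 ± 0.21, adjusted p = 1.48e-06), and the call held under every alternative tried. The gene that rose was *fn1b*, 13 of the 28 had positive differences and the median was −0.07. Among the members that did not pass were *tbx2b* (−0.48 ± 0.22, adjusted p = 0.47), a repressor of chamber genes in the canal, *alcama* (−0.52 ± 0.14, adjusted p = 0.0428), an adhesion molecule of valve cells, and *klf2a* (0.82 ± 0.28, adjusted p = 0.167), a transcription factor induced by blood flow. *has2*, which makes hyaluronan, had a difference of 0.23 ± 0.30 and *vcana*, a versican gene, one of 0.13 ± 0.30. Of the 16 genes of trabeculation signals none passed, with 2 higher and 1 lower at an unadjusted p under 0.05 by limma (4.75% and 4.69% of all genes).

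Of 9 epicardial genes 2 rose between these ages. *tcf21*, a transcription factor of the epicardium, was at 0 in most 2 dpf hearts and measured 0 to 7.38 (median 3.12) at 3 dpf, against 0 to 1.21 (median 0) at 2 dpf. In 8 of the 10 hearts of 3 dpf it was above the 2 dpf range (1.65 ± 0.33, adjusted p = 0.00054), although its count did not exceed 7 UMIs in any wildtype heart. *aldh1a2*, the enzyme that makes retinoic acid in the epicardium and other mesoderm, measured 1.46 to 11.9 (median 8.27) at 3 dpf, against 0 to 3.64 (median 1.55) at 2 dpf, also with 8 hearts above (1.67 ± 0.30, adjusted p = 8.56e-05). The calls of *tcf21* and *aldh1a2* were both lost with hearts thinned to the shallowest. *tbx18*, another epicardial transcription factor, measured 0 to 6.28 (median 1.25) at 3 dpf, against 0 to 1.21 (median 0) at 2 dpf and did not pass (1.14 ± 0.32, adjusted p = 0.0459), although it passed in edgeR (0.00632). Of the 9 genes of the epicardium list *tcf21* and *aldh1a2* rose and none fell, and the median was 0.37. At an unadjusted p under 0.05 by limma, 5 were higher and 1 was lower (4.75% and 4.69% of all genes). The summed level of the list was 121 to 244 (median 152) at 3 dpf and 116 to 202 (median 156) at 2 dpf. The list as a sum thus did not rise. The epicardial markers *wt1a* and *wt1b* were not analysed here. None of 35 endothelial genes passed, with 5 higher and 0 lower at an unadjusted p under 0.05 (4.75% and 4.69% of all genes). *cdh5*, the cadherin of endothelial junctions, measured 10.5 to 54.0 (median 32.8) at 3 dpf, against 17.1 to 41.7 (median 29.3) at 2 dpf (0.02 ± 0.17, adjusted p = 0.99).

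**Figure D3:**
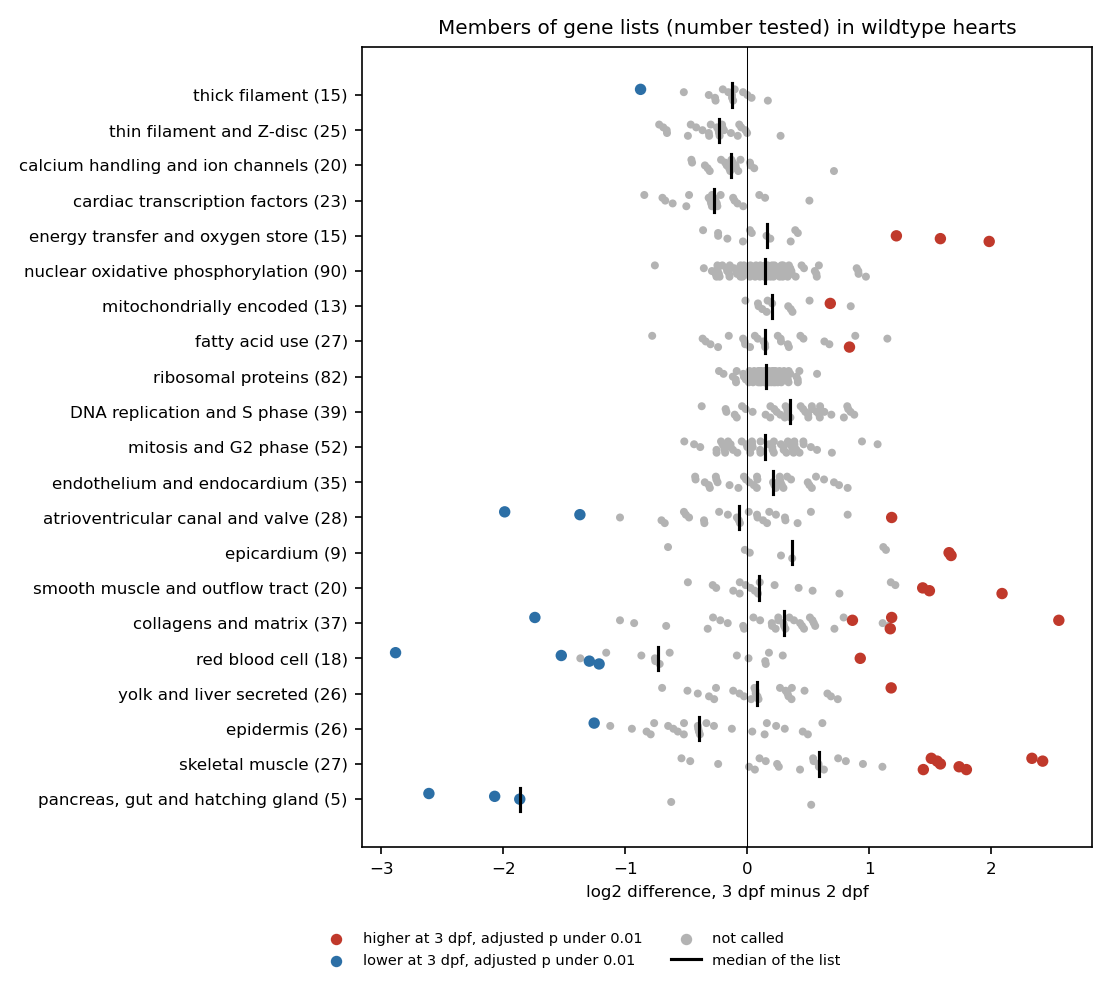
Log2 difference of 3 dpf minus 2 dpf wildtype hearts (x axis) for the members of 21 gene lists (y axis, with the number of genes tested). Each point is a gene, coloured where the adjusted p was under 0.01, and black bars are the medians. Called genes stand far from their list's median in the outflow tract, matrix and energy lists, and the red blood cell list is spread mostly below 0.

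Of the lists of growth and division none held a called gene. Of 39 genes of DNA replication and S phase, 32 had positive differences and 11 were higher at an unadjusted p under 0.05, with a median of 0.35. Their levels summed to 144 to 233 (median 188) at 3 dpf and 92.4 to 211 (median 123) at 2 dpf. *pcna*, the sliding clamp of replication, measured 27.6 to 50.0 (median 40.2) at 3 dpf, against 20.3 to 42.9 (median 31.6) at 2 dpf (0.33 ± 0.14, adjusted p = 0.428), and *rrm1*, the large subunit of ribonucleotide reductase, measured 5.41 to 15 (median 11) at 3 dpf, against 2.08 to 8.50 (median 4.8) at 2 dpf (0.88 ± 0.24, adjusted p = 0.0348). The 52 mitotic genes had a median of 0.14, and *mki67*, a marker of dividing cells, had a difference of −0.25 ± 0.23. Of 82 ribosomal protein genes 73 had positive differences, with a median of 0.15, and of 25 genes of the nucleolus 21 did, with a median of 0.22. Of 25 genes for the chromatin of dividing cells 13 had positive and 12 negative differences, with a median of 0.02. At an unadjusted p under 0.05 by limma, 4.75% of all genes were higher and 4.69% lower. There, 3 of 52 mitotic, 13 of 82 ribosomal, 5 of 25 nucleolar and 2 of 25 chromatin genes were higher and none was lower. The mitotic and chromatin counts were thus near the share over all genes.

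Part of the change was in blood. *hbbe3*, an embryonic β-globin gene, gave the largest decrease of all genes. It measured 0 to 4.0 (median 1.3) at 3 dpf, against 6.07 to 60.4 (median 15.5) at 2 dpf, and every 3 dpf heart was below every 2 dpf heart (−2.88 ± 0.28, adjusted p = 2.53e-13). *hbbe1.1* measured 14.9 to 85.2 (median 43) at 3 dpf, against 33.2 to 174 (median 102) at 2 dpf (−1.22 ± 0.18, adjusted p = 1.12e-06) and *hbbe1.2* measured 1.99 to 41.9 (median 12.7) at 3 dpf, against 8.31 to 89.3 (median 31.4) at 2 dpf (−1.30 ± 0.25, adjusted p = 0.000331). Their ranges overlapped, and as these globin genes are near-identical in sequence the split of reads between them is uncertain. The α-globin gene *hbae3* was lower without passing (−0.75 ± 0.19, adjusted p = 0.0186). It passed in edgeR (adjusted p = 5.44e-05) and, in limma, with UMIs corrected for the barcode limit (adjusted p = 0.00234), its count reaching 229 UMIs. In DESeq2 *hbbe1.1* (adjusted p = 0.0295) and *hbbe1.2* (adjusted p = 0.123) lost their calls. The contrast between these globin genes thus depended on the method. *slc4a1a*, the anion exchanger of the red cell membrane, measured 1.05 to 7.53 (median 3.61) at 3 dpf, against 1.04 to 45.0 (median 13.3) at 2 dpf. No 3 dpf heart was below the lowest 2 dpf heart, while none exceeded 7.53 (−1.53 ± 0.30, adjusted p = 0.00054).

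The red blood cell genes did not move as 1 block. *rhag*, which encodes a channel for gases and ammonium of the red cell membrane, rose. It measured 17.5 to 54.0 (median 27.1) at 3 dpf, against 6.74 to 24 (median 15.8) at 2 dpf, with 7 of the 10 hearts of 3 dpf above the 2 dpf range (0.93 ± 0.19, adjusted p = 0.00113). Of the 18 genes of the list 4 fell, 1 rose and the median was −0.74. *hbbe2*, a further β-globin gene, had a difference of 0.15 ± 0.25, *gata1a*, the transcription factor of red cell precursors, one of 0.18 ± 0.22, and *alas2*, the first enzyme of haem synthesis in these cells, one of −0.87 ± 0.31. The summed level varied between 100 and 353 at 3 dpf and between 111 and 663 at 2 dpf. The number of members that fell was 4 to 7 when single hearts were left out, with 6 without 3 dpf heart 15 or 2 dpf heart 6 and 7 without 2 dpf heart 13. DESeq2 called 2 members lower.

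Of the 5 genes of the pancreas, gut and hatching gland list 3 fell, and these 3 are expressed in the hatching gland. *he1a* and *he1b* encode hatching enzymes, proteases that the hatching gland on the front of the embryo releases to open the egg envelope. *he1a* measured 0 to 5.41 (median 1.15) at 3 dpf, against 4.15 to 30.8 (median 11.4) at 2 dpf and *he1b* measured 0 to 1.57 (median 0.647) at 3 dpf, against 1.55 to 15.4 (median 6.74) at 2 dpf, with 9 of the 10 hearts of 3 dpf below the 2 dpf range for either (−2.61 ± 0.28, adjusted p = 1.19e-11 and −2.07 ± 0.31, adjusted p = 8.18e-07). *ctslb* (ENSDARG00000074306), a cathepsin L gene of the same gland, measured 0 to 4.21 (median 1.02) at 3 dpf, against 2.08 to 21.6 (median 10.8) at 2 dpf (−1.87 ± 0.29, adjusted p = 3.12e-06). The 3 genes together summed to 0.965 to 6.76 at 3 dpf and 9.35 to 67.8 at 2 dpf, a description only, since they were picked by this comparison, and each was called under every alternative. The other members did not pass, with log2 differences of −0.62 for a further *ctslb* row (ENSDARG00000039173) and 0.52 for *fabp2*, a fatty acid binding protein gene of the gut. The assignment of reads between such close copies is uncertain.

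Of 27 skeletal muscle genes 8 rose, and by very unequal amounts among 3 dpf hearts. *mylpfa*, the regulatory light chain of fast muscle myosin, measured 3.14 to 52.7 (median 13.0) at 3 dpf, against 0 to 6.83 (median 2.08) at 2 dpf, and 7 of the 10 hearts of 3 dpf were above the 2 dpf range (2.42 ± 0.34, adjusted p = 1.03e-07). *pvalb2*, a parvalbumin of fast muscle that buffers calcium, measured 2.90 to 40.6 (median 5.87) at 3 dpf, against 0 to 3.12 (median 1.12) at 2 dpf (2.33 ± 0.33, adjusted p = 1.64e-07). The 8 called genes of the list, *mylpfa*, *pvalb2*, *myhz1.1*, *atp2a1*, *ckmb*, *tpma*, *pvalb1* and *tnnt3b*, summed to 247 in heart 15, 139 in heart 17 and 119 in heart 19, against 28.5 to 31.8 in hearts 21 to 24. All 13 hearts of 2 dpf were between 6.07 and 26.4. Thus even the lowest 3 dpf hearts were just above the 2 dpf range in this sum, a description only, since the genes were picked by this comparison.

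None of the 27 fell, and the median of the list was 0.59. Its summed level was 230 to 638 (median 312) at 3 dpf and 199 to 446 (median 312) at 2 dpf. The medians were thus alike, and the highest 3 dpf heart lay beyond the 2 dpf range. The number that rose was 5 without heart 15, heart 17 or heart 19, and 3 without hearts 15 and 17 together, a choice made after seeing the data. *myhz1.1* (ENSDARG00000067990), a fast myosin heavy chain gene with near-identical neighbours, measured 0.965 to 18.9 (median 3.22) at 3 dpf, against 0 to 1.66 (median 0.616) at 2 dpf. *atp2a1*, the calcium pump of fast muscle, measured 0.965 to 32.4 (median 6.01) at 3 dpf, against 0 to 3.37 (median 1.69) at 2 dpf. Both lost their call without hearts 15 and 17. *myl1*, an essential light chain of fast muscle that was in no list, measured 0.994 to 19 (median 4.38) at 3 dpf, against 0 to 4.06 (median 0) at 2 dpf (1.91 ± 0.34, adjusted p = 8.63e-05). The α-actin genes *acta1b* (−0.47 ± 0.12, adjusted p = 0.019) and *acta1a* (−0.54 ± 0.18, adjusted p = 0.146), which embryonic heart muscle also expresses, had negative differences and did not pass.

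**Figure D4:**
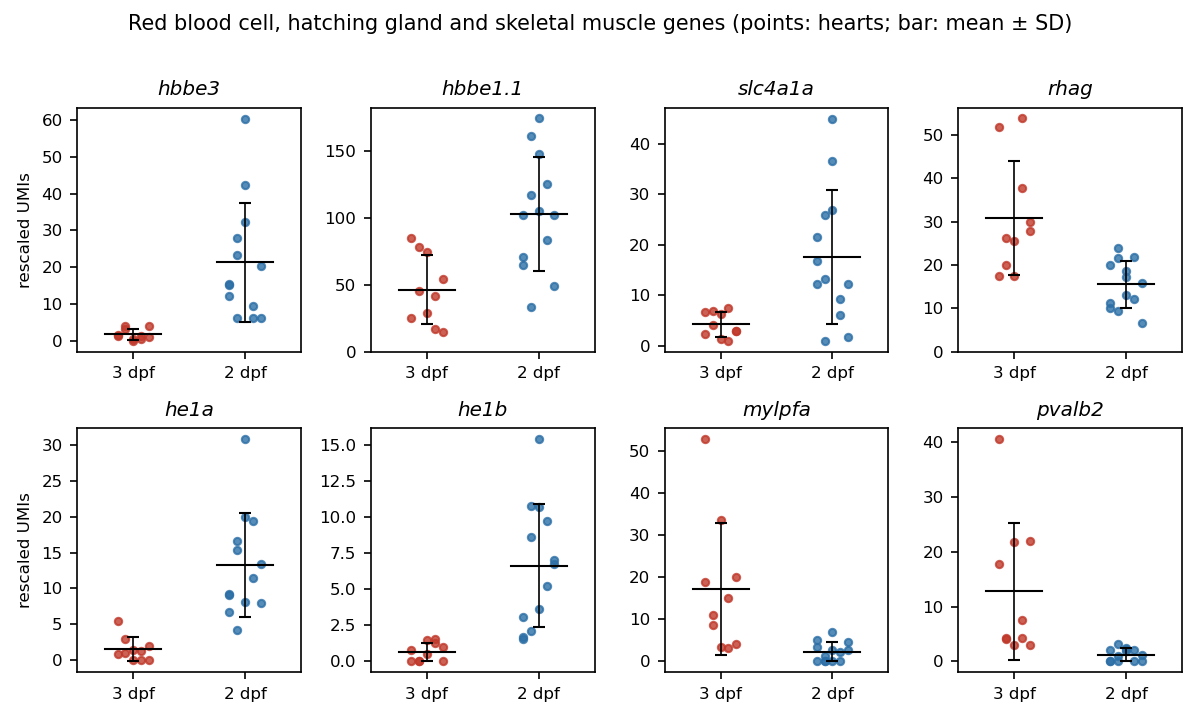
Levels in rescaled UMIs (y axis) of 8 red blood cell, hatching gland and skeletal muscle genes in single wildtype hearts, with 10 hearts of 3 dpf on the left and 13 of 2 dpf on the right of each panel. Points are hearts and bars are the mean ± SD. *hbbe3* shows no overlap, and *mylpfa* and *pvalb2* are spread widely at 3 dpf with heart 15 highest.

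Genes of skin, liver and yolk were present at both ages. *cyt1l*, a type I keratin gene, fell among 26 genes of the epidermis, whose median was −0.40. It measured 0.994 to 45.2 (median 11.1) at 3 dpf, against 8.43 to 61.9 (median 29.4) at 2 dpf (−1.26 ± 0.29, adjusted p = 0.00571), and its call was lost when any of 10 of the 23 hearts was left out, with an adjusted p of up to 0.051. The *cyt1l* call was also lost in DESeq2 (adjusted p = 0.554) and with hearts thinned to the shallowest. In limma it was lost with a pseudocount of 5 (0.0369) and over rows with a mean level of at least 1 (0.0158). *krt15*, a keratin gene in no list, rose without overlap of the ages and measured 4.0 to 10.5 (median 6.63) at 3 dpf, against 0 to 2.43 (median 0.880) at 2 dpf (2.14 ± 0.29, adjusted p = 8.28e-08). *rbp4*, the retinol carrier of plasma, was the 1 gene of 26 yolk and liver genes that rose. It measured 2.90 to 51.0 (median 11.9) at 3 dpf, against 1.69 to 9.25 (median 3.12) at 2 dpf (1.18 ± 0.28, adjusted p = 0.00923) and was highest in heart 17. Its call was lost when any of 16 of the 23 hearts was left out, with an adjusted p of up to 0.0665, and in DESeq2 (0.0121). *apoa1b*, an apolipoprotein of yolk and liver, was highest in the same heart and measured 4.71 to 165 (median 18.8) at 3 dpf, against 7.27 to 33.9 (median 18.5) at 2 dpf (0.08 ± 0.26, adjusted p = 0.966). None of 11 neuron and lens, 8 cartilage, 4 pigment cell and 12 macrophage or neutrophil genes passed, with 2, 0, 0 and 3 lower and none higher at an unadjusted p under 0.05.

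The largest rise of all genes was that of *gstm.3*, which was in no list, a glutathione S-transferase gene of the mu class. It measured 4.71 to 21.1 (median 11.2) at 3 dpf, against 0 to 2.64 (median 1.46) at 2 dpf, and all 10 hearts of 3 dpf were above all 13 of 2 dpf (2.59 ± 0.29, adjusted p = 3.08e-11). *alpi.1*, an alkaline phosphatase gene, fell and measured 0 to 8.99 (median 3.84) at 3 dpf, against 4.40 to 20.2 (median 11) at 2 dpf (−1.43 ± 0.26, adjusted p = 0.000171). Of the 63 changed genes 28 were in no list. They included 2 rows named *si:dkey-26g8.4* and 2 named *si:dkey-269i1.4*, whose differences lay between −1.80 and −2.13, and *zgc:174855* (−1.99 ± 0.34, adjusted p = 2.3e-05). The paired rows share a name and the split of reads between them is uncertain. Further changed genes that were looked at after their values were seen were *angptl7* (1.46 ± 0.32, adjusted p = 0.00261), an angiopoietin-like gene, *slc3a2b* (1.31 ± 0.28, adjusted p = 0.00252), the heavy chain of amino acid transporters, and *sox11a* (−1.40 ± 0.31, adjusted p = 0.00302), a transcription factor of immature cells.

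Lists of the clock and of stress responses were counted in the same way. None of 26 circadian, 11 glucocorticoid response, 19 immediate early, 15 heat shock, 15 p53 and 7 interferon genes passed. At an unadjusted p under 0.05 they had 2, 0, 1, 2, 0 and 2 higher and 0, 0, 0, 0, 1 and 0 lower, where 4.75% of all genes were higher and 4.69% lower. *per1b*, a gene of the circadian clock, had a difference of 0.36 ± 0.32 and *fkbp5*, a target of glucocorticoids, one of 0.32 ± 0.27. None of 28 genes of Polycomb subunits passed, with 0 higher and 2 lower, and *rnf2* itself, the catalytic subunit that the series is about, measured 0 to 7.53 (median 3.94) at 3 dpf, against 2.25 to 8.11 (median 4.39) at 2 dpf (−0.60 ± 0.30, adjusted p = 0.521).

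Genes were listed at an age only where at least 25% of the hearts of that age expressed them, mutants included. Thus 1025 rows stood in the 3 dpf table only and 837 in the 2 dpf table only. Nearly all were scarce: 97.8% and 99.0% had a mean level under 1. At 3 dpf only, the largest means belonged to *gngt2b* (3.44, with 27 in the highest heart and 5 of 10 hearts with a UMI), a transducin subunit of cone photoreceptors, and *myhz1.2* (3.16, 9 of 10 hearts), a fast myosin gene. They were followed by *elnb* (2.13), *blf* (2.13), a zinc finger gene of blood, and the digestive protease gene *prss59.2* (1.77). At 2 dpf only, the largest means were those of *zgc:174154* (4.18, all 13 hearts), *tg* (3.06, 5 of 13 hearts), which encodes thyroglobulin, *col15a1b* (1.81, 11 of 13 hearts), a collagen gene, and the lens crystallin genes *crygm2d5* (1.77) and *crygm2d9* (1.29). These rows could not be tested, since no values are given at the other age. There it is known only that fewer than 25% of the hearts, mutants included, expressed them.

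To see which of these changes were particular to wildtype hearts, the contrast of ages was also computed in *rnf2* mutant hearts. These were 9 of 3 dpf and 9 of 2 dpf, dissected from the same kind of cross and carrying the same transgene. The mutant changes and the differences between genotypes came from 1 fit of all 41 hearts, rescaled to their median total. That total is higher than 39415, so that changes of scarce genes are understated less than in the wildtype fit. Wildtype and mutant changes therefore do not subtract exactly to the differences given. Mean levels of both genotypes are at 39415. The change with age differed between genotypes for 128 genes (1.26% of all genes) by limma's interaction term, and it was more positive in mutants for 0.461% and more negative for 0.794%. Among the 63 genes chosen by their change in wildtype hearts these were 10 of the 38 that rose, all more negative in mutants, and 2 of the 25 that fell, both more positive, a description only, since these genes were chosen by the wildtype values. The 10 were *LTBP4*, *gstm.3*, *fbln5*, *postna*, *rhag*, *loxa*, *cav1*, *col4a1*, *wfdc1* and *krt94*. The difference between genotypes was lost in edgeR for *postna* (0.0983) and *wfdc1* (0.365) and in DESeq2 for *postna* (0.0515), *fbln5* (0.0266) and *loxa* (0.0127), the values being adjusted p. Mutant hearts were sequenced more deeply, with 46595 to 108650 UMIs over the shared rows, and 57 genes passed when every heart was thinned to the shallowest. The 38 genes had a median difference of 0.41 in mutants and 1.52 in wildtypes, and the 25 genes had −1.16 and −1.43.

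None of *LTBP4*, *loxa* and *fbln5* passed the test between ages in mutants. *LTBP4* averaged 0.535 ± 0.333 at 3 dpf and 0.875 ± 0.934 at 2 dpf (SD, n = 9 each) in mutants, and 14.6 ± 13.3 at 3 dpf and 1.24 ± 1.05 at 2 dpf (SD, n = 10 and 13) in wildtypes, and the change in mutants minus that in wildtypes was −2.88 ± 0.51 (SE, adjusted p = 6.18e-05). *loxa* averaged 2.87 ± 2.18 at 3 dpf and 2.07 ± 0.851 at 2 dpf (SD, n = 9 each) in mutants, and 25.5 ± 20.1 at 3 dpf and 4.37 ± 2.59 at 2 dpf (SD, n = 10 and 13) in wildtypes (difference of changes −1.92 ± 0.45, adjusted p = 0.0046). *fbln5* averaged 1.96 ± 1.62 at 3 dpf and 3.24 ± 1.94 at 2 dpf (SD, n = 9 each) in mutants, and 24.6 ± 19.2 at 3 dpf and 8.53 ± 6.95 at 2 dpf (SD, n = 10 and 13) in wildtypes (difference of changes −2.04 ± 0.50, adjusted p = 0.00735). A gene that rose in wildtypes and fell in mutants was *rhag*, which averaged 8.91 ± 5.04 at 3 dpf and 16.8 ± 4.56 at 2 dpf (SD, n = 9 each) in mutants, and 30.8 ± 13.1 at 3 dpf and 15.5 ± 5.49 at 2 dpf (SD, n = 10 and 13) in wildtypes (difference of changes −1.95 ± 0.32, adjusted p = 1.15e-05).

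Several changes were shared by both genotypes. Of the 25 genes that fell in wildtypes 14 also fell in mutants (1.79% of all genes did), and of the 38 that rose 9 also rose (1.39% of all genes). *hbbe3* averaged 2.27 ± 0.841 at 3 dpf and 36 ± 16.7 at 2 dpf (SD, n = 9 each) in mutants (change −3.49 ± 0.31, adjusted p = 9.65e-17), *he1a* averaged 1.88 ± 1.60 at 3 dpf and 33.8 ± 20.3 at 2 dpf (SD, n = 9 each) (change −3.64 ± 0.32, adjusted p = 9.65e-17) and *bmp4* averaged 9.61 ± 3.84 at 3 dpf and 19.3 ± 5.19 at 2 dpf (SD, n = 9 each) (change −1.0 ± 0.23, adjusted p = 0.0013). *mb* rose in mutants too, with 15.5 ± 5.03 at 3 dpf and 4.45 ± 2.01 at 2 dpf (SD, n = 9 each) (change 1.66 ± 0.27, adjusted p = 3.42e-06). For these 4 genes the difference between genotypes did not pass, with adjusted p of 0.7, 0.355, 0.633 and 0.698, which does not show that the genotypes were alike. *alpi.1* fell in wildtypes and rose in mutants, where it averaged 26.6 ± 9.57 at 3 dpf and 9.52 ± 4.99 at 2 dpf (SD, n = 9 each) (difference of changes 2.97 ± 0.39, adjusted p = 2.97e-08). For *tcf21* and *aldh1a2*, the epicardial genes that rose in wildtypes, the mutant changes were 0.42 ± 0.34 and 0.33 ± 0.35 and the difference between genotypes did not pass (adjusted p of 0.0746 and 0.0724). The mean level of *tcf21* was 0.587 at 3 dpf and 0.217 at 2 dpf in mutants, and 3.49 and 0.251 in wildtypes. That of *aldh1a2* was 7.52 at 3 dpf and 4.28 at 2 dpf in mutants, and 7.71 and 1.66 in wildtypes.

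**Figure D5:**
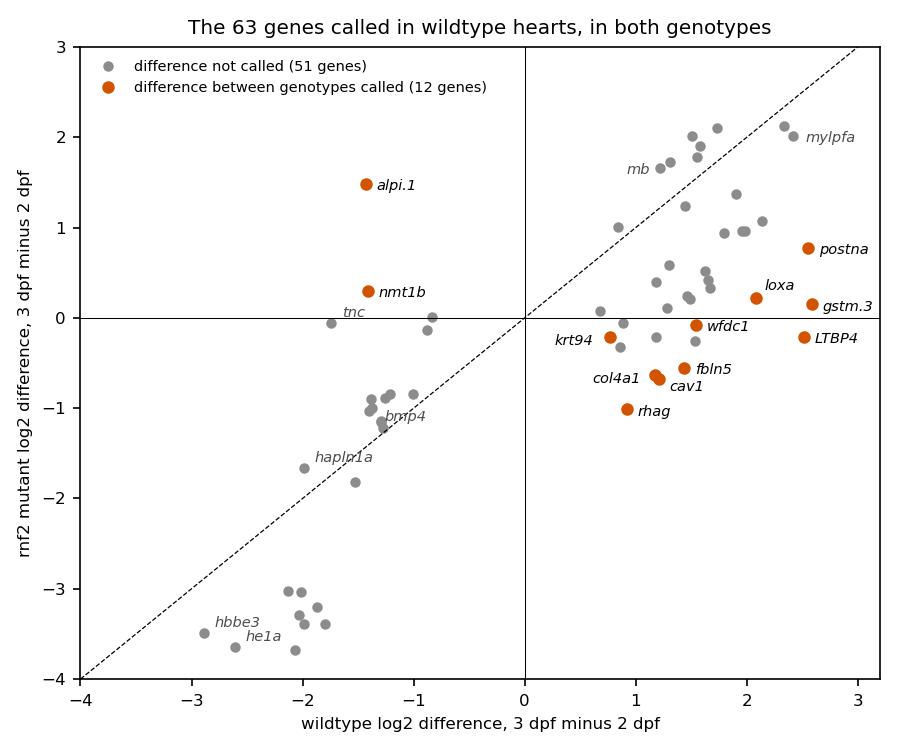
Log2 difference of 3 dpf minus 2 dpf in *rnf2* mutant hearts (y axis, 9 against 9 hearts) against that in wildtype hearts (x axis, 10 against 13 hearts) for the 63 genes that changed in wildtype hearts. The dashed line marks equal changes. The axes come from fits at unlike totals, so that the distance from the line is not the tested difference. The 12 genes whose change differed between genotypes at an adjusted p under 0.01 are coloured. *LTBP4*, *gstm.3* and *loxa* lie near 0 in mutants, whereas *hbbe3* and *he1a* fell in both genotypes.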

How the data were processed

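Single hearts were sequenced by CEL-seq, and the authors counted UMIs against GRCz10, removed hearts outside ±2 SD of the log mRNA amount and divided each heart by 1 size factor in Monocle, separately per age. The deposited values are a signal, or for 3 columns recorded as a score, made by the same steps. The labels give these samples as dissected hearts and polyA RNA, whereas their extraction text describes whole embryos and rRNA depletion, and the account as CEL-seq is that of the study's methods. In all 41 hearts of both genotypes 100% of values were whole multiples of 1 step (tolerance 0.001), so that whole UMIs were recovered. Each heart was rescaled to the same total over the rows shared by both ages and analysed as log2(level + 1) in R 4.3.3 with limma 3.58.1 (trend, empirical Bayes moderation, Benjamini-Hochberg adjusted p under 0.01 over 10196 rows). Counting error is large for low genes, as 4301 rows had a mean level under 1. edgeR 4.0.16 and DESeq2 1.42.0 were run on recovered counts as alternatives. In all 13 other settings were planned, leaving out each heart in turn among them, and 3 were added after seeing the data. The method was run on simulated counts with the same dispersion for every gene and no barcode limit. Only genes with a mean level of at least 5 were changed there, so that the simulation does not cover scarcer genes. Libraries were not duplicates, the lowest chi-square per gene between hearts of an age being 1.25.

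Named were the 12 changed genes per direction with the largest difference and a mean level of at least 5 at the higher age, up to 4 changed genes per list and direction, a set of heart, marker and clock genes, the 5 genes per direction that differed most surely between genotypes, and the 5 rows of highest mean listed at 1 age only. The hearts, genes and 39 lists were chosen with earlier results of these data known. Lists are described by counts and medians only.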

Additional observations from a re-analysis of the deposited data

Results flagged for a closer look

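In 15 of 113 groups of 3 dpf hearts tested, 1 heart stood apart from the other 9 by Dixon's criterion. The chance rate of about 1 in 20 for this criterion holds for normally distributed values. Levels were tested here without taking logs, and list sums share genes with the tests of single genes. All 15 flags were on the high side, and those of *tnc* and *zgc:174855* rest on few UMIs. The count of flags therefore cannot be compared with that rate, and the flags are a description only. Heart 15 was high for *pvalb2* (40.6, next 22), *ckmb* (41.9, next 19.9) and the sum of the skeletal muscle list (638, next 407). Heart 17 was high for *rbp4* (51.0, next 19), *apoa1b* (164.8, next 57.0) and the sum of the yolk and liver list (875, next 408). Heart 18 was high for *loxl1* (13.8, next 3.00) and for the sums of the epicardium list (244, next 183) and the collagen and matrix list (513, next 375). Heart 19 was high for *myl1* (19), *tnc* (2.00), *si:dkey-26g8.4* (ENSDARG00000095072, 13.0) and the sum of the neuron, eye and lens list (55.0, next 15.1). Heart 20 was high for *zgc:174855* (2.43), and heart 23 for the sum of the macrophage and neutrophil list (14.7, next 8.11).

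For 21 of the genes examined the change between 3 dpf and 2 dpf differed between *rnf2* mutant and wildtype hearts by limma's interaction term at an adjusted p under 0.01, given here as mutant minus wildtype on the log2 scale. Of these, 10 were examined because they were among the genes that differed most surely in this same test, and 4 more (*cav1*, *krt94*, *nmt1b* and *wfdc1*) because they changed in wildtypes and passed it, so that the count is in part set by that choice. It was more negative in mutants for *LTBP4* (−2.88), *zgc:86709* (−2.67), *gstm.3* (−2.59), *nppb* (−2.55), *fbln5* (−2.04), *postna* (−2.01), *rhag* (−1.95), *loxa* (−1.92), *acta1a* (−1.91), *cav1* (−1.90), *pcna* (−1.87), *col4a1* (−1.82), *wfdc1* (−1.79), *acta1b* (−1.55) and *krt94* (−0.99). It was more positive in mutants for *aldh9a1a.1* (1.49), *sesn1* (1.74), *nmt1b* (1.84), *arrdc3b* (2.1), *alpi.1* (2.97) and *zgc:110340* (2.98). The clamp gene *pcna* averaged 8.27 at 3 dpf and 24.8 at 2 dpf in mutants, and 41 at 3 dpf and 32.3 at 2 dpf in wildtypes. The natriuretic peptide gene *nppb* averaged 3.21 and 31.4 in mutants at these ages, and 8.08 and 14.4 in wildtypes.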

How the results depend on the processing

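The 38 genes higher, 25 lower and 128 differing between genotypes became 9, 11 and 57 with every heart thinned to the shallowest, of which 9 and 10 were among the 38 and 25. They became 65, 55 and 293 at an adjusted p under 0.05. edgeR gave 61 higher and 40 lower, of which 38 and 23 were shared, a fit of both genotypes gave 55 higher and 38 lower, and DESeq2 gave 38 higher and 17 lower, of which 33 and 16 were shared. Without single hearts the counts ranged from 31 to 40 higher and 20 to 31 lower. None of the 63 called genes changed its sign under these settings. Of 43 called genes examined, 16 passed under all alternatives, 26 lost their call in thinning and 6 lost it without some heart (*col1a2*, *cyt1l*, *fabp11a*, *loxl1*, *myh7bb* and *rbp4*). Of 31 that were not called, *tbx18*, *acta1b*, *nppa* and *hbae3* passed under some alternative and 7 changed sign under some. *hbae3* passed without 3 dpf heart 15 or 17 or 2 dpf heart 6 or 13 (adjusted p of up to 0.0077), and *acta1b* without 3 dpf heart 21 (0.00521) or 2 dpf heart 4 (0.000413). With genes detected as a covariate, and likewise with UMIs corrected for the barcode limit, *nppa*, *acta1b* and *hbae3* all passed. The difference between genotypes was lost in 4 of 12 alternatives for *fbln5* and *postna*, in 3 of 11 for *wfdc1*, to which DESeq2 gave no adjusted p, in 3 of 12 for *loxa*, in 2 for *nmt1b* and in 1 for *aldh9a1a.1*. For these changes the cause was not tested. Depth limits what can be seen in the 4301 rows with a mean level under 1. No paired analysis was possible because each heart came from a different embryo.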
